A study of Mus musculus with 12 samples.

Results

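Defb1 and S100a9 encode proteins of the innate defence of epithelia, and each was represented by 1 probe among the 9558 probes of a spotted cDNA array, so that 2 of 6774 named genes are described here. The probes were chosen by their gene annotation. The genes themselves were picked with results of these arrays in view, Defb1 for its low ratio in high calcium, so the high calcium values below are a description with no test. The low calcium values come from other arrays and were tested, with a spread estimated from both calcium levels. The members were chosen with earlier results of these data known, so these tests are not fully independent of that choice.

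Beta-defensins such as Defb1 are short, cationic, cysteine-rich peptides that damage microbial membranes, and beta-defensin 1 is made by epithelia without the need for infection. S100a9 encodes a calcium-binding EF-hand protein that pairs with the product of S100a8 to form calprotectin, which starves microbes of metal ions. Calprotectin is scarce in resting epidermis, is induced in inflamed or wounded skin and is abundant in neutrophils. DeltaNp63alpha is the p63 isoform without the N-terminal transactivation domain that prevails in basal keratinocytes.

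Primary keratinocytes from the skin of C57Bl/6NCr mice received an adenovirus for deltaNp63alpha or, as the control, one for beta-galactosidase, and RNA was taken 41 h later. Over the final 24 h the medium held calcium at 0.05 mM (called low) or at 0.12 mM (called high), the level that induces differentiation. Both arms thus carried an adenovirus; for the age, sex and number of the mice, nothing is given in the sources used here. Each of 12 arrays compared the RNA of both arms at 1 calcium level by their dyes. Each level had 3 repeats. A repeat comprised a forward array, on which Cy5 marked deltaNp63alpha, and a reversed array with the dyes exchanged, and the log2 ratio of a pair is the forward minus the reversed value divided by 2. The labels call the repeats technical, so the spread between pairs may be technical. No array compared the calcium levels with each other, and a ratio gives no level, so neither the abundance of these transcripts nor the identity of the cells could be read from marker genes. In such bulk RNA, fewer cells that make a transcript and less transcript per cell cannot be told apart.

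The direction of all ratios here is not settled. Cy5 was taken as the numerator of the deposited ratios, and the reversed arrays were turned, so that a negative ratio stands for less RNA in the deltaNp63alpha arm; "fell" and "lower" hold under this reading. If the deposited ratios had already been turned, the pair value would be the mean of both arrays: Defb1 would stand at 0.02 in low and 0.44 in high calcium, and S100a9 at 0.45 and 0.21. Forward and reversed arrays of a level, as deposited, had median correlations across genes of 0.444 (low) and 0.255 (high), whereas arrays ruled by a ratio that turns with the dyes would correlate negatively. Ratios turned before deposit and a dye effect cannot be told apart here. The probe of Trp63, the transduced gene, did not back the direction: its pair values were -0.78 and 0.45 in low calcium and -0.59 and -0.50 in high calcium. Whether that probe detects the transgene is not known. An array held between 3366 and 9096 probes with a value. The sparse arrays were those of repeats 2 and 3 in low calcium and of repeat 3 in high calcium, and their experiment numbers in the labels form a second range apart from that of the other 3 repeats.

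With the reversed arrays turned, the beta-defensin Defb1 was lower with deltaNp63alpha on every high calcium array. The forward arrays of repeats 1, 2 and 3 read -1.47, -1.49 and -0.71, and the reversed arrays, as deposited, read 1.91, 1.87 and 2.52. The sign therefore changed with the dyes in all 3 repeats. The pair values were -1.69, -1.68 and -1.61, a mean log2 ratio of -1.66 ± 0.04 (SD, n = 3 pairs), or 3.16-fold less RNA with deltaNp63alpha. Among 7263 rows (genes or unnamed probes) with at least 2 high calcium pairs, Defb1 ranked 4 from the lowest. The close pair values hide a wider spread of arrays: the part shared by both orientations, which the pair value removes, was 0.22 and 0.19 in repeats 1 and 2 and 0.90 in the sparse repeat 3. The median size of that part over all rows was 0.23, 0.24 and 0.55 in these pairs.

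In low calcium the Defb1 values differed between the repeats. Repeat 1 read -0.88 on the forward and 1.46 on the reversed array, a pair value of -1.17. Repeat 2 read -0.20 and -0.29 as deposited, with no change of sign, and gave a pair value of 0.04. Repeat 3 had a value on the reversed array alone, 2.20, which is -2.20 once turned and enters no pair. The log2 ratio over the complete pairs was -0.56 (SD 0.86, n = 2 pairs), and the gene was not called (limma adjusted p = 0.477). The limma SE was smaller, at 0.24, because its spread drew on the close high calcium pairs and on other rows. For comparison, 0.409% of 4646 rows were called in low calcium at a limma adjusted p under 0.05, and 1.39% of 7263 rows in high calcium. The value rested on single repeats: it was 0.04 without low calcium repeat 1 and -1.17 without repeat 2. Each came from 1 pair, whose spread could be taken only from the high calcium pairs and other rows, so no p is given. With the lone array of repeat 3 kept as a pair value, it was -1.11 (limma adjusted p = 0.624).

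**Figure D1:**
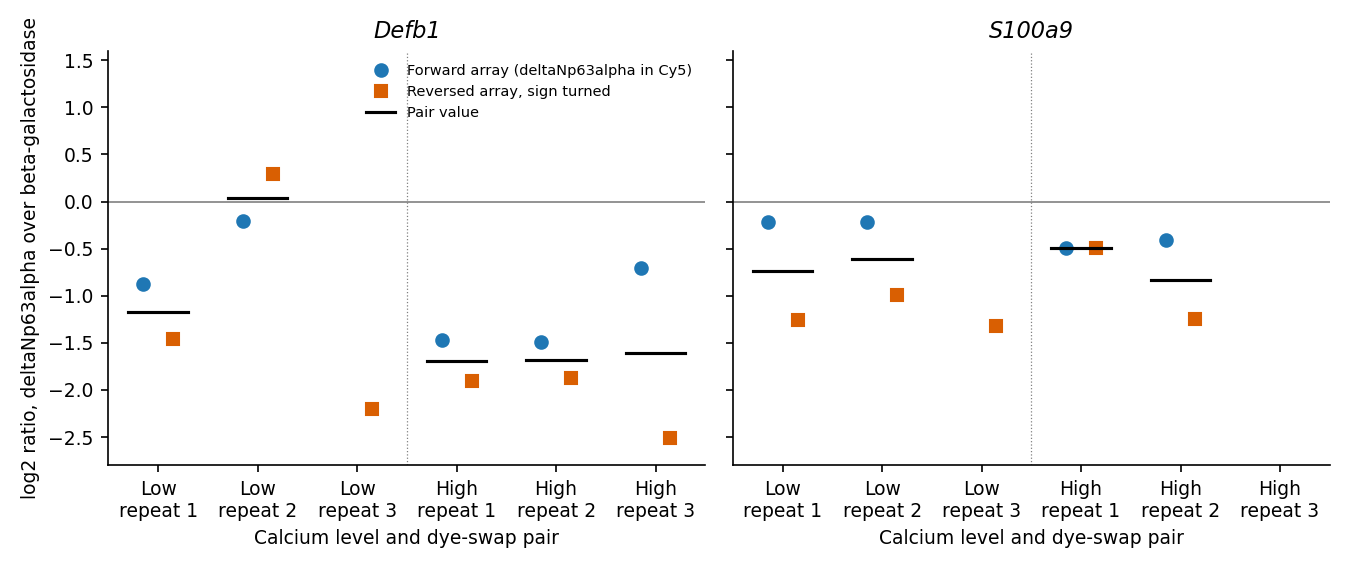
Points show the log2 ratio of each array (y axis, deltaNp63alpha over beta-galactosidase; reversed arrays with the sign turned) by calcium level and repeat (x axis), and black lines show the pair value where both arrays had one. All 6 high calcium arrays of Defb1 lie below 0, from -2.51 to -0.71, low calcium repeat 2 stands near 0, and all 9 arrays with a value for S100a9 lie below 0.

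The S100a9 ratio was smaller in size than that of Defb1 in high calcium and had nearly the same mean at both calcium levels. In low calcium, repeat 1 read -0.22 on the forward and 1.26 on the reversed array, and repeat 2 read -0.22 and 0.99. The pair values were -0.74 and -0.61, and the lone reversed array of repeat 3 read 1.32, again opposite in sign to the forward arrays. The log2 ratio was -0.68 ± 0.19 (limma SE, n = 2 pairs, SD 0.10), 1.6-fold less RNA with deltaNp63alpha, lower in 2 of 2 pairs. S100a9 was not called (limma adjusted p = 0.193), and ranked 56 from the lowest of 4646 rows. Reversed arrays alone gave -1.19 with a limma adjusted p of 0.0295, whereas forward arrays alone gave -0.22 (limma adjusted p = 0.454). Calls were common on reversed arrays alone in low calcium, at 333 of 5340 rows, against 19 of 4646 with pairs.

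In high calcium, S100a9 read -0.49 (forward) and 0.49 (reversed) in repeat 1, and -0.42 and 1.25 in repeat 2. The pair values were -0.49 and -0.83, a mean of -0.66 ± 0.24 (SD, n = 2 pairs), or 1.58-fold less RNA with deltaNp63alpha. Neither array of repeat 3 had a value. S100a9 ranked 214 from the lowest of 7263 rows.

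**Figure D2:**
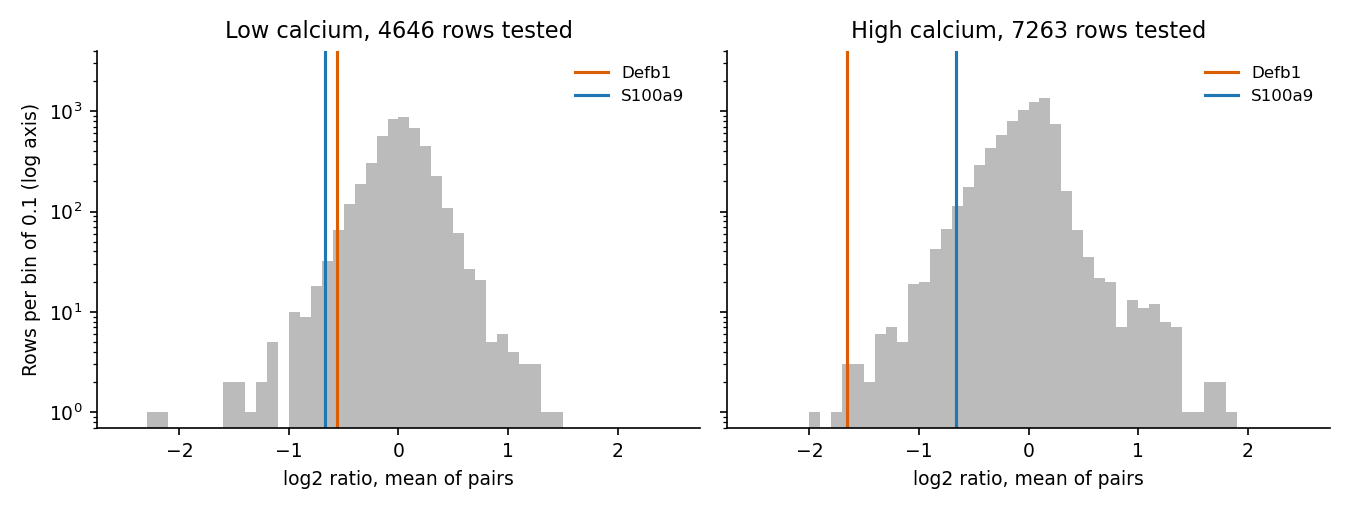
Histograms of the log2 ratio (x axis, mean of pairs) of all rows tested in low (left, 4646 rows) and high calcium (right, 7263 rows), with the number of rows per bin on a log axis. Coloured lines mark Defb1 (-0.56 and -1.66) and S100a9 (-0.68 and -0.66); only Defb1 in high calcium lies at the far end of a distribution.

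Taking the turned arrays one by one, S100a9 was below 0 on 9 of 9 arrays and Defb1 on 10 of 11, the exception being the reversed array of low calcium repeat 2 at 0.29. Of 4299 rows with a value on at least 9 arrays, 0.675% were below 0 on all of them, 2.81% on all or all but 1, and 0.279% above 0 on all. With the signs as deposited, S100a9 was below 0 on 4 of 9 arrays and Defb1 on 6 of 11, and the shares of rows below 0 and above 0 on all arrays were larger, at 6.21% and 7.86%. These shares are a description, because the genes were picked with these ratios in view.

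The difference between calcium levels, high minus low, was -1.10 ± 0.31 (SE) for Defb1 on the log2 scale and 0.01 ± 0.26 (SE) for S100a9. Both use the high calcium values and are given without a test. Over all rows 0% of 4209 were called for this difference (limma; 0 rows, 106 at an unadjusted p under 0.05). For Defb1 the difference depended on which low calcium repeat was used. Within the first range of experiment numbers, where repeat 1 of low calcium meets repeats 1 and 2 of high calcium, it was -0.52. Within the second range it was -1.65, from low calcium repeat 2 against high calcium repeat 3. For S100a9 the first range gave 0.08, and the second held no high calcium value. Set side by side in the same pair, Defb1 minus S100a9 was -1.20 and -0.85 in high calcium repeats 1 and 2 and -0.43 in low calcium repeat 1, whereas in low calcium repeat 2 the order turned, at 0.65.

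S100a8, the partner of S100a9 in calprotectin and its next gene on mouse chromosome 3, was measured too sparsely to set its direction. It had complete pairs only in high calcium repeats 2 and 3, at 0.18 and 0.21. In repeat 2, the pair that both genes have, S100a9 was at -0.83. The S100a8 value of repeat 3 was the mean of turned arrays at 1.33 and -0.91, which oppose each other. Its lone arrays, once turned, read 0.24 in high calcium repeat 1 and -0.41, -1.98 and 1.06 in low calcium repeats 1, 2 and 3. Reversed arrays alone gave -1.20 in low and -0.38 in high calcium, and forward arrays alone gave 0.60 in high calcium. Over the complete pairs S100a8 averaged 0.20 ± 0.19 (SE, n = 2), was not called (limma adjusted p = 0.771), and the difference between these genes was not tested.

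Elsewhere in the S100 family 1 gene fell at each calcium level. S100a6, which encodes another small calcium-binding protein and lies 4 genes from S100a9, fell in low calcium, with pair values of -0.97 and -1.02, a mean of -0.99 ± 0.18 (SE, n = 2) and a limma adjusted p of 0.0442. In high calcium it stood at -0.59 and was not called (limma adjusted p = 0.173). S100a10, whose protein binds annexin A2, fell in high calcium, with pair values of -1.04 and -1.18, a mean of -1.11 ± 0.19 (SE, n = 2) and a limma adjusted p of 0.0223. It had no complete pair in low calcium. Both calls were lost when arrays served as replicates, on forward arrays alone, with single arrays kept, when arrays were scaled to 1 spread and under the trended variance (limma adjusted p from 0.0608 to 0.872). With 1 of their own 2 pairs left out, each rested on 1 pair, so no p is given. S100a10 also lost its call on the reversed arrays (limma adjusted p = 0.181). With the signs as deposited S100a6 was called higher in low calcium, at 0.76 (limma adjusted p = 0.043), as were 320 of 4646 rows. S100a10 stood at 0.39 in high calcium with those signs (limma adjusted p = 0.346).

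Of 16 listed S100 genes 10 were on the array. In low calcium 3 besides S100a9 were tested and 1, S100a6, fell, beside 0.387% of all rows called lower. Their median log2 ratio was -0.06, against 0.02 over all rows. In high calcium 8 besides S100a9 were tested and 1, S100a10, fell, beside 0.84% of all rows called lower; their median was -0.20, against 0.01. S100a1 (-0.22), S100a4 (-0.31), S100a5 (0.24), S100a13 (0.02) and S100g (-0.19) did not pass in high calcium. S100a4 (-0.01) and S100a5 (-0.06) did not pass in low calcium, and S100b had 1 pair at each level, at -0.05 and 0.04.

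Of the antimicrobial genes on the array besides Defb1 and S100a9, none passed the test at either level. Of 29 listed genes 10 were on the array. In low calcium, apart from Defb1 and S100a9, 6 were tested and 0 were called by limma (2 at an unadjusted p under 0.05). Their median was 0.34. In high calcium, again apart from the members, 6 were tested and 0 were called by limma (1 at an unadjusted p under 0.05). Their median was 0.19. Over all rows, 439 of 4646 in low and 842 of 7263 in high calcium had an unadjusted limma p under 0.05. Lcn2, the iron-trapping lipocalin, had log2 ratios of -0.63 (limma adjusted p = 0.301) and -0.34 (limma adjusted p = 0.624) in low and high calcium. Its turned forward and reversed arrays opposed each other in low calcium repeat 2, at -3.80 and 1.08. Slpi, an inhibitor of leukocyte proteases with antimicrobial activity, stood at 0.61 and -0.06, and Camp, the cathelicidin, at 0.03 and 0.32. The chemokines Ccl20 (0.31 and 0.17) and Cxcl14 (0.57, in high calcium only) did not pass, nor did lysozyme Lyz2 (0.37) and lactoferrin Ltf (0.39), both tested in low calcium only.

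**Figure D3:**
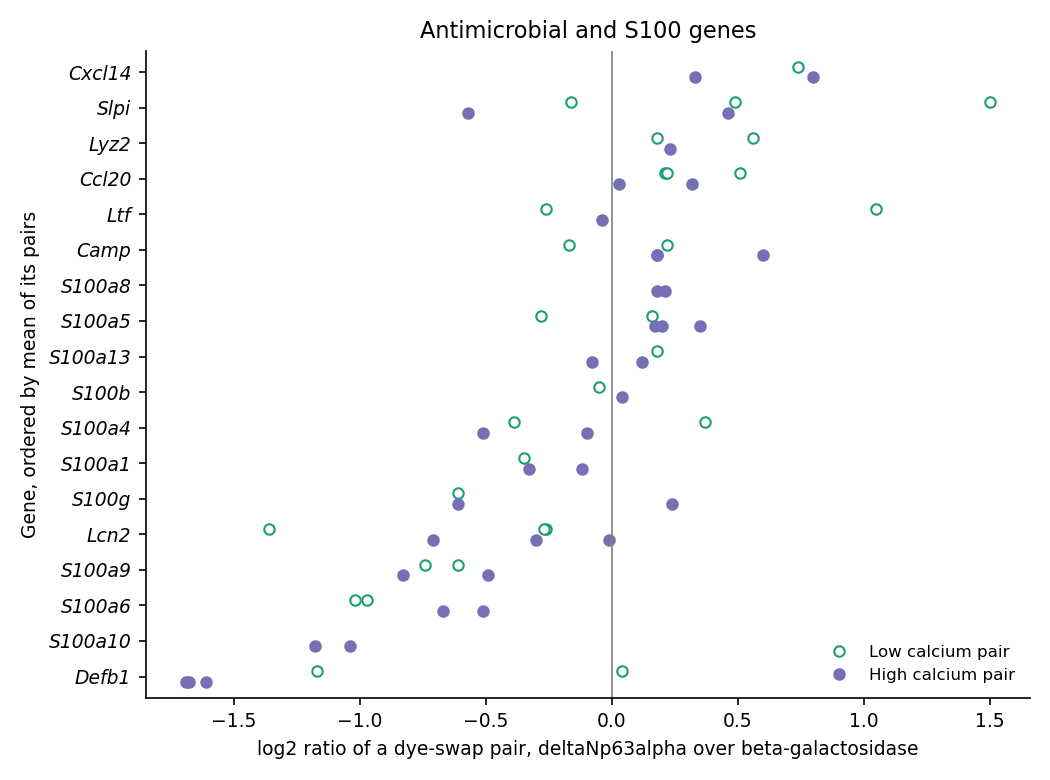
Each point is the log2 ratio of a dye-swap pair (x axis) for a gene of the antimicrobial or S100 list (y axis, ordered by the mean of its pairs), open for low and filled for high calcium. Defb1 and S100a10 stand lowest, S100a9 lies below 0 in all 4 of its pairs (-0.83 to -0.49), and S100a8 lies above 0 in its 2 pairs.

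The genes that sense microbes or drive defence genes were mostly near 0. Of 8 receptors and sensors tested in high calcium and 4 in low calcium, 0 were called by limma (1 and 0 at an unadjusted p under 0.05); the medians were 0.01 and 0.09. Ager, which encodes the receptor RAGE that binds S100 proteins, stood at 0.30 and 0.15 in low and high calcium, and Tlr2 at 0.04 in high calcium. Among cytokines and regulators, 0 of 13 were called by limma in low calcium (0 at an unadjusted p under 0.05). Il1f5, an antagonist in the interleukin-1 family, was not among the 13, as it had 1 low calcium pair, at -1.40. In high calcium 2 of 16 fell, beside 0.84% of all rows called lower. They were Il1f5 (-1.45, limma adjusted p = 0.00828) and the alarmin Il33 (-1.16, limma adjusted p = 0.0353). Both calls were lost with arrays as replicates, on forward or reversed arrays alone, with single arrays kept and under the trended variance (limma adjusted p from 0.13 to 0.898). Il33 was also not called with the experiment number range as a block (-0.71, limma adjusted p = 0.288). With repeat 2 of high calcium left out, Il33 had 1 pair there, at -0.93, so no p is given. With the signs as deposited Il1f5 stood at -0.10 (limma adjusted p = 0.792) and Il33 at -0.07 (limma adjusted p = 0.922). The NF-kappaB genes Rela (0.24 and 0.29) and Nfkbia (0.08 and 0.02) did not pass at either level.

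Of 9 late differentiation genes tested in high calcium, 6 fell (Crct1, Flg, Klk5, Klk7, Krt10 and Sprr1a), beside 0.84% of all rows called lower. That was the direction of the Defb1 ratio there, and the median of the 9 was -1.57. As for the other lists here, the genes were chosen with earlier results of these data known, so such shares are a description. With the signs as deposited 0 of 9 were called (limma) and 2 of 9 stood below 0. With arrays as replicates, on forward or reversed arrays alone, with single arrays kept or under the trended variance 0 of 9 were called, although at least 8 of 9 stayed below 0. Each of these settings called 0 or 1 of all rows in high calcium. Of the 2 with a value in every pair, 0 were called, beside 14 of 1381 such rows. With 1 low calcium pair or high calcium repeat 3 left out, 5 or 6 of 9 were called. With high calcium repeat 1 or 2 left out, only 2 of 9 kept 2 or more pairs, so no count of calls is given. In those fits 9 and 8 of 9 stood below 0. In low calcium 1 of 6, Sprr1a, a cornified envelope precursor, fell (-2.16 ± 0.21 SE, n = 3 pairs, limma adjusted p = 0.000395), beside 0.387% of all rows called lower. This call was lost with arrays as replicates, on 1 spread, under the trended variance and with single arrays kept (limma adjusted p from 0.0902 to 0.172). With the signs as deposited Sprr1a was called higher, at 0.91 (limma adjusted p = 0.032), as were 320 of 4646 rows. In low calcium 3 of 6 fell when each level was fitted apart, when the repeat number served as a block and when high calcium repeat 1 or 2 was left out. Leaving out low calcium repeat 2 or high calcium repeat 3, 2 of 6 fell. Over all rows, the number called lower in these settings ran from 17 of 2667 (low calcium repeat 2 left out) to 37 of 4646 (repeat number as a block). The part of differentiation in the Defb1 ratio was not tested. Of the markers of neutrophils, which make S100a9, 7 of 13 were on the array and 5 were tested at each level. 0 were called by limma (0 and 0 at an unadjusted p under 0.05), and their ratios ran from -0.04 to 0.39 in low and from -0.15 to 0.32 in high calcium. Of the macrophage and other leukocyte markers limma called 0 of 6 in low and 0 of 9 in high calcium (2 and 0 at an unadjusted p under 0.05). The fibroblast, melanocyte and keratinocyte markers likewise gave 0 calls by limma at both levels (0, 0 and 1 in low and 0, 0 and 2 in high calcium at an unadjusted p under 0.05). Keratinocyte markers stood below 0 in 6 of 6 tested in low (median -0.24) and 5 of 8 in high calcium (median -0.28). The medians over all rows were 0.02 and 0.01. Among all rows, 439 of 4646 in low and 842 of 7263 in high calcium had an unadjusted limma p under 0.05.

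The measured genes next to the members on the chromosome had these values, and differences between genes were not tested. The nearest measured neighbour of Defb1 on mouse chromosome 8, Defa24, an alpha-defensin gene 2 places away, had pair values of 0.18 in low calcium repeat 1 and of 0.17 and 0.25 in high calcium, where Defb1 read -1.17, -1.69 and -1.68. S100a9 lies in the epidermal differentiation complex, between the S100 genes and the genes of the cornified envelope. Among the S100 genes, S100a6 stood below 0 in the 4 pairs it shared with S100a9, at -0.97 and -1.02 in low and -0.51 and -0.67 in high calcium, where S100a9 read -0.74, -0.61, -0.49 and -0.83. The other S100 genes among the nearest measured neighbours stood at -0.31 (S100a4), 0.24 (S100a5), 0.20 (S100a8) and 0.02 (S100a13) in high calcium. In low calcium S100a4 stood at -0.01 and S100a5 at -0.06. On the other side Lor, the loricrin gene, stood at 0.00 and -0.15 in low and high calcium, and further along Sprr1a stood at -2.16 and -1.63.

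The genes whose pairs were most like those of each member were found by the root mean square difference of pair values. For Defb1, over its 5 pairs and 1396 named genes, these were Sptssa (0.34), Tmem45a (0.64), Anxa1 (0.66), Rnf11 (0.66) and Nktr (0.67). Sptssa, which encodes a subunit of the enzyme that begins sphingolipid synthesis, was the nearest. Its pair values were -0.86 and 0.07 in low calcium repeats 1 and 2 and -1.25, -1.47 and -1.13 in high calcium, so it too was near 0 in low calcium repeat 2. Over the 11 arrays that both had, their correlation was 0.92 as a description; arrays of a pair share RNA.

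For S100a9, over 4 pairs and 2850 named genes, the nearest were Tubb5 (0.09), Ccni (0.10), Bex3 (0.13), Tvp23b (0.14) and Gcsh (0.14). Because the pairs and genes compared differ, these distances cannot be set against those for Defb1. The array correlations with S100a9 ran from -0.42 for Tvp23b to 0.96 for Ccni, so a like pair value did not always go with like arrays.

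**Figure D4:**
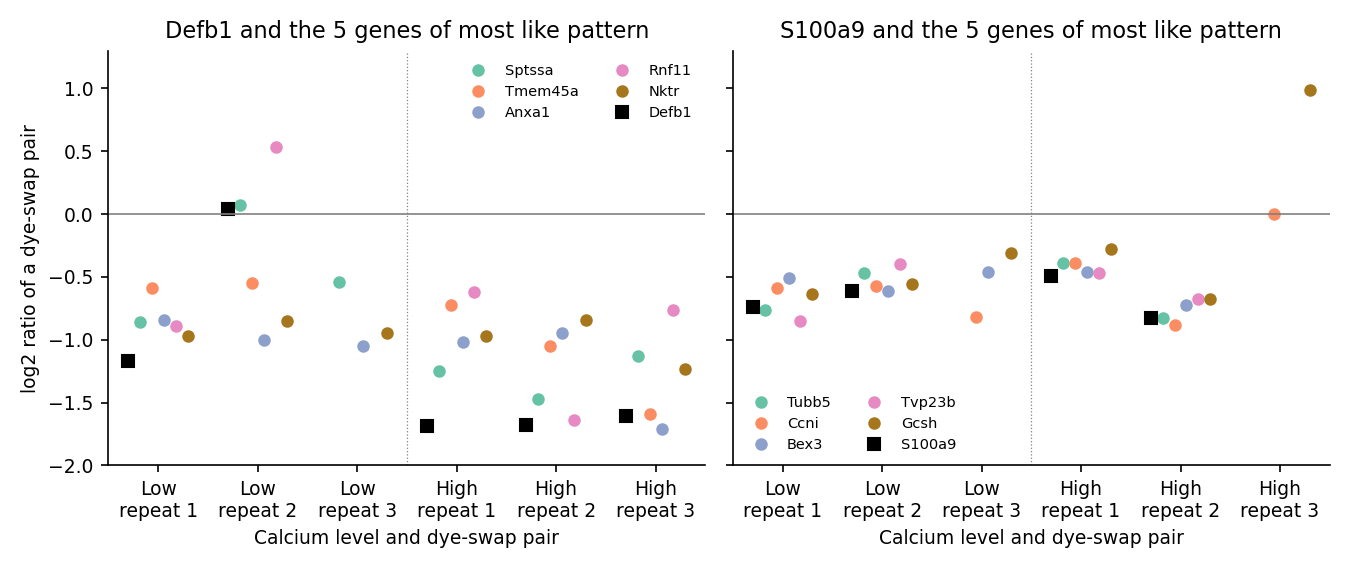
Pair log2 ratios (y axis) by calcium level and repeat (x axis) for Defb1 (left) and S100a9 (right), drawn as black squares, and for the 5 genes of smallest root mean square difference from each, drawn as coloured points. Sptssa follows Defb1 near 0 in low calcium repeat 2 (0.07 against 0.04), and the neighbours of S100a9 lie within a narrow band in the 4 pairs compared. The genes were picked by closeness in these same pairs, so this likeness follows from the choice.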

How the data were processed

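The deposited value of a probe is a log2 dye ratio; the labels name Cy3 and Cy5 labelling with a Genisphere kit. The log base was taken from the range (-7.88 to 4.60). Not given in the sources used here: background correction, normalisation, spot filter and numerator dye. Deposited array medians lay within 0.0005 of 0.

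In the platform's annotation, 7457 probes carried a single gene symbol, 481 several and 1620 none. Of the single symbols 7368 were updated by gene ID (RefSeq table of GRCm38.p6, also used for gene order). Probes of a gene were averaged, which gave 8875 rows, and each array was centred on its row median. Pair values of both calcium levels were fitted together in limma 3.58.1 (R 4.3.3; lmFit, eBayes). A row was tested at a level with at least 2 pairs, and a Benjamini-Hochberg adjusted p under 0.05 over all rows was a call. The prior held 9.62 degrees of freedom, against a median of 2 residual ones. Each SE given is from this fit, so its spread pools both calcium levels and leans on that prior. The members and gene lists were chosen with earlier results of these data known. Named genes were the members, Trp63, all measured antimicrobial and S100 genes, called members of other lists (up to 4 a list) and the 5 nearest genes by pattern. Other list genes and neighbours were named after their values were seen. Protein sequences were not used here.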

Additional observations from a re-analysis of the deposited data

How the results depend on the processing

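With the signs kept as deposited, Defb1 stood at 0.02 in low calcium, 0.44 in high calcium and 0.42 for the difference, and S100a9 at 0.45, 0.21 and -0.25. Under the other alternatives both genes stayed below 0 at each level, except Defb1 in low calcium at 0.04 without low calcium repeat 1. Defb1 in high calcium was -1.22 on forward arrays, -2.10 on reversed arrays, -2.05 once arrays were scaled to 1 spread and -1.57 with the experiment number range as a block. Its difference was -0.55 with single arrays kept. S100a9 in high calcium was -0.98 with arrays on the same spread. In low calcium it was -1.19 and called on reversed arrays, where 333 of 5340 rows were called. Its difference was -0.23 on forward arrays, 0.32 on reversed arrays, 0.23 with single arrays kept and -0.26 on the same spread. With 1 pair left out, the ranges were -1.17 to 0.04, -1.69 to -1.64 and -1.70 to -0.49 for Defb1 in low calcium, high calcium and the difference, and -0.74 to -0.61, -0.83 to -0.49 and -0.15 to 0.18 for S100a9. Fits that left Defb1 a single low calcium pair give no p for it. Over the other alternatives its limma adjusted p in low calcium ran from 0.104 to 0.96. For S100a9 it ran from 0.0295 to 0.785.

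Whether the repeat numbers pair the levels is not settled. The correlations of deviations between levels were -0.026, -0.108 and 0.204 for repeats 1, 2 and 3 over 1381 rows. With the repeat number as a replicate block, Defb1 was at -0.54 and S100a9 at -0.72 in low calcium, neither called, and 59 rows were called in place of 19. The number of rows called was 0 to 785 for low calcium, against 19, and 0 to 234 for high calcium, against 101. Neither member had a value in every pair, so the filter to such rows gave no value. The number of arrays limits the precision.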
